A study of Homo sapiens with 12 samples.

Results

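The genes described here are 7 of the 58051 genes in the count table: CSF1, CSF1R, KIT, FLT3, CSF2RA, CSF2RB and CSF3R, the colony-stimulating factor axis with its related growth factor receptors. They were chosen by symbol as myeloid growth factor and receptor genes. CSF1 was also selected on its measured IFN-γ responses, which differ in direction between the genotypes, and KIT on its higher level in the untreated knockout. CSF1 is therefore described without a test throughout, and for KIT a test is read only where both genotypes had IFN-γ. All 7 genes passed the filter on low counts.

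The libraries came from THP-1, a human monocytic leukaemia line, with the heparan sulfate proteoglycan gene SDC3 (syndecan-3) knocked out by CRISPR/Cas9 or left as wild type. All cells, controls included, were made macrophage-like with 20 ng/ml of the phorbol ester PMA for 24 h and given fresh medium, and the next day recombinant human IFN-γ was added or not. The 4 groups of 3 libraries were knockout with IFN-γ, wild type with IFN-γ, untreated knockout and untreated wild type. The labels give no dose or duration of IFN-γ, no edited position and no number of edited clones, so a difference between genotypes cannot be told apart from a difference between cell clones. They also do not say that replicates were separate cultures, so the p-values measure the spread between these libraries, which may be technical. "Untreated" below means PMA without IFN-γ.

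Read counts totalled 23616738 to 29426415 per library. SDC3 itself stood at 237, 237 and 244 CPM, its counts scaled to library depth by TMM, in the knockout with IFN-γ, against 578, 590 and 572 CPM in wild type with IFN-γ. It stood at 49.9, 48.2 and 43.9 CPM in the untreated knockout, against 196, 252 and 242 CPM in untreated wild type. The SDC3 transcript was thus lower but present in every knockout library, and its counts say nothing of the protein. Summed CPM of 10 macrophage markers was 2937 to 3098 in the knockout with IFN-γ, 3880 to 3971 in wild type with IFN-γ, 2839 to 2989 in the untreated knockout and 3609 to 3708 in untreated wild type. Of these 10 markers, 9 reached 5 CPM in some group, while CD68, a lysosomal glycoprotein gene, had 10 to 47 counts per group. Markers of T cells and epithelium summed to at most 0.403 CPM in any library, and those of dendritic cells, B cells and fibroblasts to at most 91.5, 18 and 18.6 CPM.

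CSF1, or M-CSF, is the growth factor that macrophages depend on for survival, and it acts through CSF1R, a class III receptor tyrosine kinase. KIT, the receptor of stem cell factor, and FLT3, the receptor of FLT3 ligand, belong to the same receptor class and mark immature haematopoietic cells. CSF2RA and CSF2RB are the ligand-binding and the shared signalling chains of the GM-CSF receptor, and CSF3R binds G-CSF. The cytokine receptor chains signal through JAK kinases and STAT factors.

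The 4 sequences upstream of receptor genes shown here were picked because the first 3 genes listed share one order of levels across the groups, while CSF1R runs the other way with IFN-γ. They are the bases before the start site that lie outside annotated exons, from RefSeq's GRCh38.p14 promoter table, 5′ to 3′ on the gene's strand, with CpG dinucleotides in capitals. KIT is on the plus strand (chr4:54657707-54657917) and FLT3, CSF3R and CSF1R are on the minus strand (chr13:28100593-28100826, chr1:36483315-36483564 and chr5:150113373-150113615).
KIT: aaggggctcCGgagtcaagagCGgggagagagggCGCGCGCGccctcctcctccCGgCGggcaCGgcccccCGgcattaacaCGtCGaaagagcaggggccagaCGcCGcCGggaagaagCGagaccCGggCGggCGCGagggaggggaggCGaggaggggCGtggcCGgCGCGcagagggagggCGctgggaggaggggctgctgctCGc
FLT3: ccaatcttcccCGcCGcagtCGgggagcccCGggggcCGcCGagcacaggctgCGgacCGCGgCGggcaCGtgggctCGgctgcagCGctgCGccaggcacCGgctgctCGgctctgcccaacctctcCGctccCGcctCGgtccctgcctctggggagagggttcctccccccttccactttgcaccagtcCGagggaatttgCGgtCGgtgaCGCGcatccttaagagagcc
CSF3R: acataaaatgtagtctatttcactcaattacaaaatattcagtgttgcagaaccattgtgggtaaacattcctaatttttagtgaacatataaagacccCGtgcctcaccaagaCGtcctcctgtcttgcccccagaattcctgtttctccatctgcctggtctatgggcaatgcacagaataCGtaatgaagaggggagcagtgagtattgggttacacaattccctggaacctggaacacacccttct
CSF1R: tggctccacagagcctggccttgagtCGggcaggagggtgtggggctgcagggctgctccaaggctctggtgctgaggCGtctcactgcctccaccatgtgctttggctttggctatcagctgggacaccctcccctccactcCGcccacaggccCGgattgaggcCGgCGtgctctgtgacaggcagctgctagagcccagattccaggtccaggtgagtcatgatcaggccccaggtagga

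In the 250 bases before these start sites there were 34 CpG in KIT, 26 in FLT3, 3 in CSF3R and 6 in CSF1R. The median over all 35116 windows of that table was 11 CpG, with quartiles at 3 and 23. The windows printed are thus CpG-rich for KIT and FLT3 and CpG-poor for CSF3R. A second CSF3R start in the table had 8 CpG, and a second CSF1R start had 2. The CSF1R bases printed lie before the start at 150113365, and the second CSF1R start is at 150086554. Counts per gene do not show which start these cells used, so the printed bases may not lie before the one in use. RefSeq windows were matched for 5 of the 7 genes, with 7 start sites. CSF1 and CSF2RB had no entry. The interferon-γ-activated site TTCNNNGAA, searched on both strands in 250 bases, was in none of the 7 windows and in 6.57% of all windows. The IRF-type motif GAAANNGAA was also in none, against 6.88% of all windows. The PU.1-type core GAGGAA, counted on both strands, occurred 1 time in FLT3, 2 times in CSF2RA, 2 times at a second CSF1R start and 1 time at a second CSF3R start. That core was in 23.6% of all windows, and neither a match nor its absence says whether a factor binds.

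CSF1 transcript was lower in the knockout than in wild type, about 10-fold without IFN-γ and 1.78-fold with it. CSF1 (ENSG00000184371) is annotated on chromosome 1 from 109910242 to 109930992 (hg38, plus strand). It had 64.2, 60.6 and 57.2 CPM in the knockout with IFN-γ, against 122, 101 and 102 CPM in wild type with IFN-γ. Untreated, it had 20.7, 23.2 and 19.9 CPM in knockout cells, against 177, 222 and 243 CPM in wild type. No 2 groups overlapped, and the order from high to low was untreated wild type, wild type with IFN-γ, knockout with IFN-γ and untreated knockout.

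With IFN-γ, CSF1 in the knockout stood 2.85-fold above its untreated level, a log2 fold change of 1.51 (SE 0.09). In wild type it stood at 0.506 of the untreated level, a log2 fold change of -0.98 (SE 0.08). These directions are what CSF1 was chosen for, so they are descriptions. The log2 difference of knockout from wild type in CSF1 was -0.84 (SE 0.08) with IFN-γ and -3.33 (SE 0.09) without. Untreated wild type was the most variable group, at 214 ± 33.3 CPM (SD, n = 3), and without its library of 177 CPM the untreated difference was -3.45. In bulk RNA, fewer cells of a type and less RNA per cell cannot be told apart.

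The 20 tested genes nearest to CSF1, 10 on each side, had a median log2 fold change of -0.06 between knockout and wild type with IFN-γ and 0.00 without. Of these 20, 4 were higher and 4 lower in knockout cells with IFN-γ, and 7 were higher and 6 lower without. Over all genes, 22.9% were higher and 24.3% lower with IFN-γ, and 25.4% and 24.8% without. CSF1 itself had log2 differences of -0.84 and -3.33. It was chosen on values from the same groups, so its distance from these medians is a description and was not tested.

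**Figure D1:**
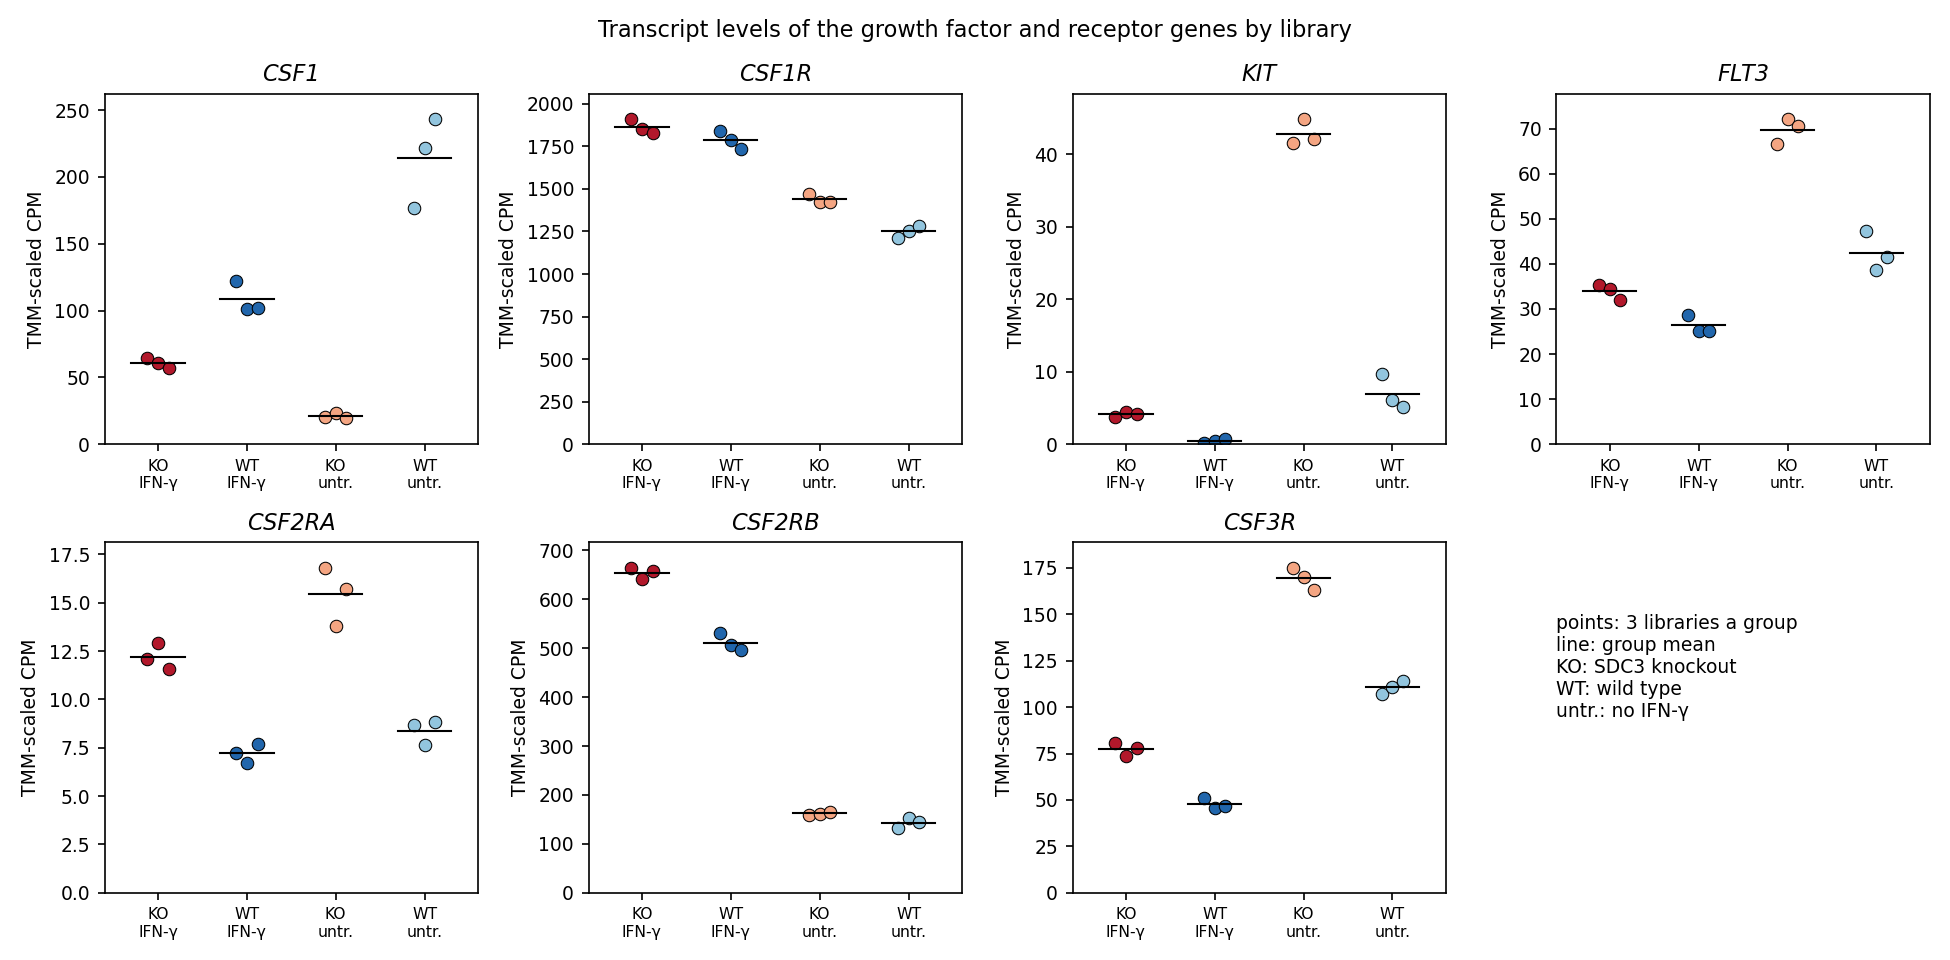
TMM-scaled CPM of the 7 genes (y axis, linear, from 0) in each of the 12 libraries, grouped on the x axis as knockout and wild type with IFN-γ, then knockout and wild type untreated; points are libraries and lines are group means. CSF1 is highest in untreated wild type (177 to 243 CPM), KIT in the untreated knockout (41.6 to 44.8 CPM), and CSF2RB is high in both IFN-γ groups.

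CSF1R, the receptor of CSF1, rose with IFN-γ in both genotypes and differed little between them. CSF1R (ENSG00000182578) is annotated on chromosome 5 from 150053291 to 150113372 (minus strand). It had 1908, 1853 and 1831 CPM in the knockout with IFN-γ, against 1840, 1787 and 1737 CPM in wild type with IFN-γ. Without IFN-γ it had 1470, 1423 and 1424 CPM in knockout cells, against 1214, 1254 and 1284 CPM in wild type. The genotypes overlapped with IFN-γ and did not overlap without it.

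Tests are edgeR's quasi-likelihood test with p adjusted over all genes, and an adjusted p under 0.05 counts as a call. The untreated knockout was 1.15-fold above untreated wild type in CSF1R (log2 0.20, SE 0.03; edgeR adjusted p = 5.9e-06). With IFN-γ the difference was 0.06 (SE 0.03; adjusted p = 0.14), with a 95% interval of -0.01 to 0.13. The IFN-γ rise was 1.30-fold in the knockout (log2 0.37, SE 0.03; adjusted p = 1.7e-11) and 1.43-fold in wild type (log2 0.52, SE 0.03; adjusted p = 7.5e-15). Without scaling of the libraries these log2 rises were 0.08 and 0.27, both still past the threshold. The rise was smaller in the knockout, with a log2 difference of -0.14 (SE 0.05; adjusted p = 0.036), a call that was lost without knockout IFN-γ library 2 (adjusted p = 0.22) and in 10 of the other settings tried.

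Ligand and receptor can be set side by side per kb of exon. CSF1 was 3.2, 3.11 and 2.97% of CSF1R per kb in the knockout with IFN-γ, against 6.28, 5.35 and 5.61% in wild type with IFN-γ. In untreated cells it was 1.34, 1.55 and 1.33% in the knockout, against 13.9, 16.8 and 18% in wild type. CSF1R was the highest of the 7 genes per kb in every group, at 362 CPM per kb in IFN-γ-treated knockout cells and 347 in wild type with IFN-γ. In untreated cells CSF1R was at 279 CPM per kb in the knockout and 243 in wild type.

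KIT transcript was higher in the knockout with IFN-γ as well as without it, and was low with IFN-γ in both genotypes. KIT (ENSG00000157404), whose CpG-rich upstream window is printed above, is annotated on chromosome 4 from 54657918 to 54740715 (plus strand). It had 3.73, 4.48 and 4.21 CPM in the knockout with IFN-γ, against 0.2, 0.456 and 0.782 CPM in wild type with IFN-γ. The values in wild type with IFN-γ rest on 5, 12 and 18 counts, and 3 counts were 0.102 to 0.127 CPM in a library. The untreated knockout had 41.6, 44.8 and 42.1 CPM, against 9.72, 6.04 and 5.1 CPM in untreated wild type. No 2 groups overlapped.

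With IFN-γ, KIT was 8.7-fold higher in the knockout (log2 3.12, SE 0.29; edgeR adjusted p = 1.5e-10), and the log2 value was 2.76 to 3.62 when single libraries were left out. Without IFN-γ, the value KIT was chosen on, the log2 fold change was 2.64 (SE 0.13). The log2 IFN-γ response was -3.37 (SE 0.15) in the knockout and -3.85 (SE 0.26) in wild type, given as descriptions. The difference of the responses was 0.48 (SE 0.37) and was 0.98 without wild-type IFN-γ library 3. KIT was the lowest of the 7 genes per kb in 3 of the groups, and in the untreated knockout, at 7.7 CPM per kb, it was above CSF1 (3.93) and CSF2RA (4.04).

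KIT marks progenitors and mast cells, so the markers of both were summed. The 8 progenitor markers summed to 2.57 to 3 CPM in the knockout with IFN-γ, 4.41 to 6.92 in wild type with IFN-γ, 124 to 132 in the untreated knockout and 76.8 to 86.8 in untreated wild type. Only 1 of the 8 reached 5 CPM in any group: MYB, a transcription factor of immature blood cells, at 2.03, 4.57, 127 and 79.7 CPM in those groups. CD34, the progenitor surface marker, had 0 to 4 counts per group and ERG had 0 in all. MYB was lower in the knockout with IFN-γ (log2 -1.17, SE 0.16; adjusted p = 2.0e-07) and higher in the untreated knockout (0.67, SE 0.06; adjusted p = 9.4e-11), while KIT was higher in both. GATA2, a stem and mast cell transcription factor and the other marker with a test, was lower in the knockout with IFN-γ (log2 -0.89, SE 0.34; adjusted p = 0.029) and without it (-1.18, SE 0.27; adjusted p = 4.8e-04). Mast cell markers summed to at most 0.925 CPM in any library, with CPA3 and FCER1A at 0. The part of MYB-expressing cells in the KIT values was not tested.

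FLT3 rose in the knockout in both conditions and fell with IFN-γ in both genotypes. FLT3 (ENSG00000122025) is annotated on chromosome 13 from 28003274 to 28100592 (minus strand). It had 35.3, 34.4 and 31.9 CPM in the knockout with IFN-γ, against 28.7, 25.2 and 25.1 CPM in wild type with IFN-γ. Untreated knockout libraries had 66.5, 72 and 70.5 CPM, against 47.2, 38.7 and 41.5 CPM in untreated wild type. The groups did not overlap and stood in the order of KIT: untreated knockout, untreated wild type, knockout with IFN-γ, wild type with IFN-γ.

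FLT3 was 1.28-fold higher in the knockout with IFN-γ (log2 0.36, SE 0.07; adjusted p = 1.2e-04) and 1.65-fold higher without it (0.72, SE 0.07; adjusted p = 7.1e-11). IFN-γ lowered it, with a log2 change of -1.04 (SE 0.07; adjusted p = 6.5e-15) in the knockout and -0.69 (SE 0.07; adjusted p = 6.2e-10) in wild type. The fall was larger in the knockout, with a log2 difference of -0.36 (SE 0.10; adjusted p = 0.01), a call lost without wild-type IFN-γ library 1 (adjusted p = 0.058). Among its 20 nearest tested genes, 0 were higher and 7 lower in knockout cells with IFN-γ (median log2 -0.11), and 1 was higher and 10 lower without (median -0.22). The other 13 and 9 did not pass the test, and over all genes 24.3% and 24.8% were lower.

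The GM-CSF receptor chains were both higher in the knockout, and IFN-γ raised CSF2RB but not CSF2RA. CSF2RB (ENSG00000100368), the shared β chain, is annotated on chromosome 22 from 36913628 to 36940449 (plus strand). It had 664, 642 and 657 CPM in the knockout with IFN-γ, against 531, 506 and 497 CPM in wild type with IFN-γ. Without IFN-γ it had 160, 161 and 166 CPM in knockout cells, against 132, 152 and 144 CPM in wild type. The IFN-γ groups lay far above the untreated ones, and the knockout above wild type in each condition, with no overlap.

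IFN-γ raised CSF2RB 4.02-fold in the knockout (log2 2.01, SE 0.04; adjusted p = 6.7e-28) and 3.58-fold in wild type (1.84, SE 0.04; adjusted p = 1.0e-26). The knockout was 1.28-fold above wild type with IFN-γ (0.35, SE 0.04; adjusted p = 1.4e-08) and 1.14-fold above it without (0.19, SE 0.04; adjusted p = 5.8e-04). The difference of the responses, 0.17 (SE 0.06; adjusted p = 0.054), just missed the threshold, and it passed with DESeq2 (adjusted p = 0.014), with limma-voom (0.044) and in 5 of the other settings.

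CSF2RA (ENSG00000198223), the α chain that gives the receptor its GM-CSF specificity, lies in a pseudoautosomal region, listed on chromosome X at 1268800 to 1310381. The table holds only its X copy, so its level is uncertain by any reads placed on the Y copy. It had 12.1, 12.9 and 11.6 CPM in the knockout with IFN-γ, against 7.25, 6.69 and 7.69 CPM in wild type with IFN-γ. Untreated knockout libraries had 16.8, 13.8 and 15.7 CPM, against 8.69, 7.65 and 8.82 CPM in untreated wild type. All 6 knockout libraries lay above all 6 wild-type libraries.

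CSF2RA was 1.7-fold higher in the knockout with IFN-γ (log2 0.76, SE 0.11; adjusted p = 4.3e-07) and 1.85-fold higher without (0.88, SE 0.10; adjusted p = 5.8e-09). IFN-γ lowered it in the knockout (-0.34, SE 0.10; adjusted p = 0.0032). In wild type the value was -0.22 (SE 0.11; adjusted p = 0.093), which passed the threshold without scaling (-0.47; adjusted p = 4.0e-04) and in 3 of the other settings. Per kb, CSF2RB stood 42, 38 and 43.3 times above CSF2RA in the knockout with IFN-γ, against 56.1, 58 and 49.5 times in wild type with IFN-γ. In untreated cells the ratio was 7.29, 8.93 and 8.08 in the knockout, against 11.7, 15.2 and 12.5 in wild type.

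Several neighbours of CSF2RA were also higher in the knockout. They span 276322 to 2502805 in the same pseudoautosomal region, so their levels may also be uncertain by reads placed on a Y copy. Of the 13 tested genes beside it, 7 were higher and 1 lower with IFN-γ (median log2 fold change 0.48), and 8 were higher and 0 lower without (median 0.58). The shares over all genes were 22.9% higher and 24.3% lower with IFN-γ, and 25.4% and 24.8% without. IL3RA, the IL-3 receptor chain that pairs with CSF2RB, is the next tested gene, and it was 3.45-fold higher in the knockout with IFN-γ (log2 1.79, SE 0.08; adjusted p = 1.3e-17) and 3.48-fold higher without (1.80, SE 0.09; adjusted p = 8.6e-17). P2RY8, a G protein-coupled receptor gene, was higher on the log2 scale by 0.90 with IFN-γ (adjusted p = 2.9e-16) and by 1.17 without (adjusted p = 1.7e-19). The size varied, and SLC25A6, a mitochondrial ADP/ATP carrier gene, was higher by a log2 of 0.12 in both conditions (adjusted p = 0.027 with IFN-γ and 0.017 without). PLCXD1 was lower with IFN-γ, with a log2 difference of -0.28 (adjusted p = 0.002), and had 0.03 without (adjusted p = 0.74). The part of this stretch in the CSF2RA value was not tested.

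**Figure D2:**
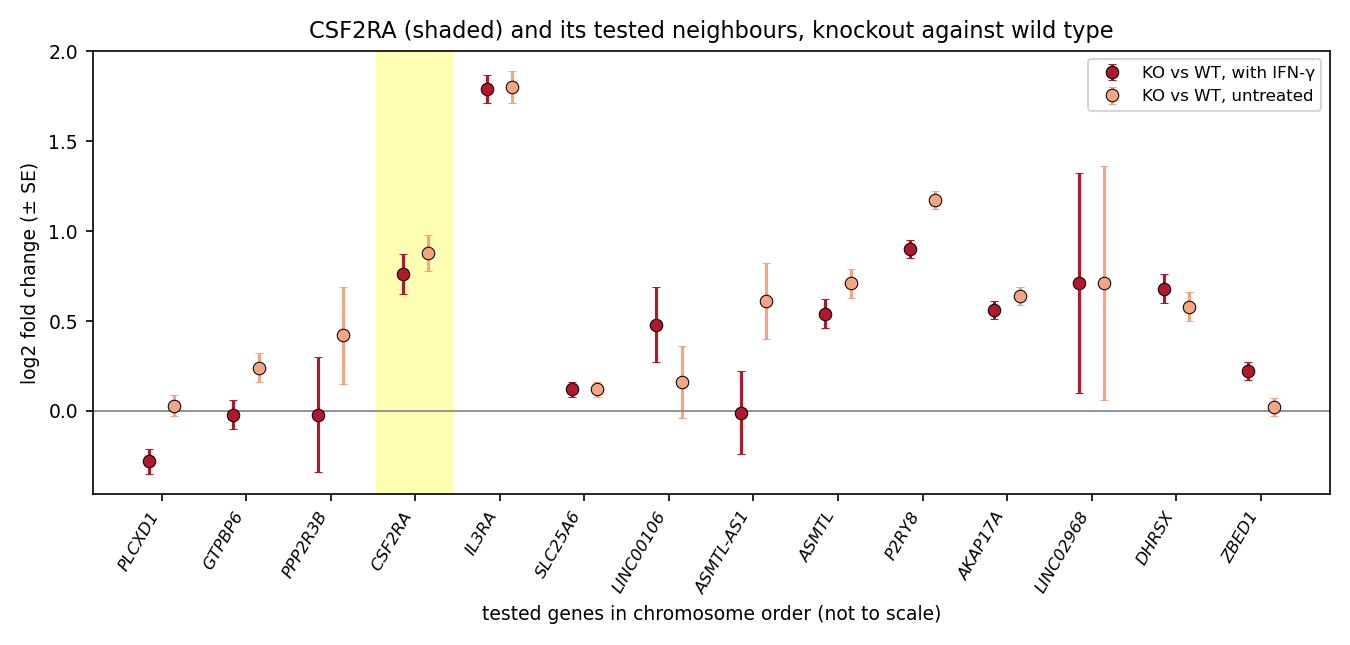
Log2 fold change of knockout against wild type (y axis, ± SE) with IFN-γ and untreated for CSF2RA, shaded, and its 13 tested neighbours in the pseudoautosomal region, listed on chromosome X, in order (x axis, not to scale). Most points lie above 0, with IL3RA highest at 1.79 and 1.80.

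CSF3R, the G-CSF receptor, rose in the knockout and fell with IFN-γ. CSF3R (ENSG00000119535) is annotated on chromosome 1 from 36466043 to 36483278 (minus strand). It had 80.6, 73.8 and 77.8 CPM in the knockout with IFN-γ, against 50.9, 45.8 and 46.6 CPM in wild type with IFN-γ. Without IFN-γ it had 175, 170 and 163 CPM in knockout cells, against 107, 111 and 114 CPM in wild type. The groups did not overlap and stood in the order of KIT and FLT3.

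CSF3R was 1.62-fold higher in the knockout with IFN-γ (log2 0.70, SE 0.05; adjusted p = 9.2e-13) and 1.53-fold higher without (0.61, SE 0.05; adjusted p = 1.7e-12). IFN-γ lowered it, with a log2 change of -1.13 (SE 0.05; adjusted p = 1.2e-19) in the knockout and -1.22 (SE 0.05; adjusted p = 8.2e-20) in wild type. The difference of the responses was 0.09 (SE 0.07; adjusted p = 0.49), with a 95% interval of -0.06 to 0.23.

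The summed level of 7 neutrophil granule markers stood in the same order as CSF3R, but not every marker did. The 7 markers summed to 84.2 to 97.9 CPM in the knockout with IFN-γ, 24.6 to 26.6 in wild type with IFN-γ, 194 to 217 in the untreated knockout and 125 to 135 in untreated wild type. Of these, 4 reached 5 CPM, the granule protease genes ELANE, PRTN3 and CTSG and the related AZU1, while LTF, the lactoferrin gene, was at most at 0.135 CPM. ELANE averaged 18.7 ± 0.836 CPM in the knockout with IFN-γ and 17.5 ± 1.51 CPM in untreated wild type (SD, n = 3 each). AZU1 averaged 44.9 ± 2.76 and 43.1 ± 2.69 CPM in those groups (SD, n = 3 each). Only these 2 groups stood in the other order than for CSF3R, and by no more than the larger SD. Both genes were highest in the untreated knockout (32.4 and 64.1 CPM) and lowest in wild type with IFN-γ (4.35 and 16.2 CPM), as was CSF3R. MPO, the myeloperoxidase gene, was lower in the untreated knockout, at 1.04 CPM beside 2.39 CPM in untreated wild type (log2 -1.21, SE 0.34; adjusted p = 0.0035). Their part in the CSF3R values was not tested.

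**Figure D3:**
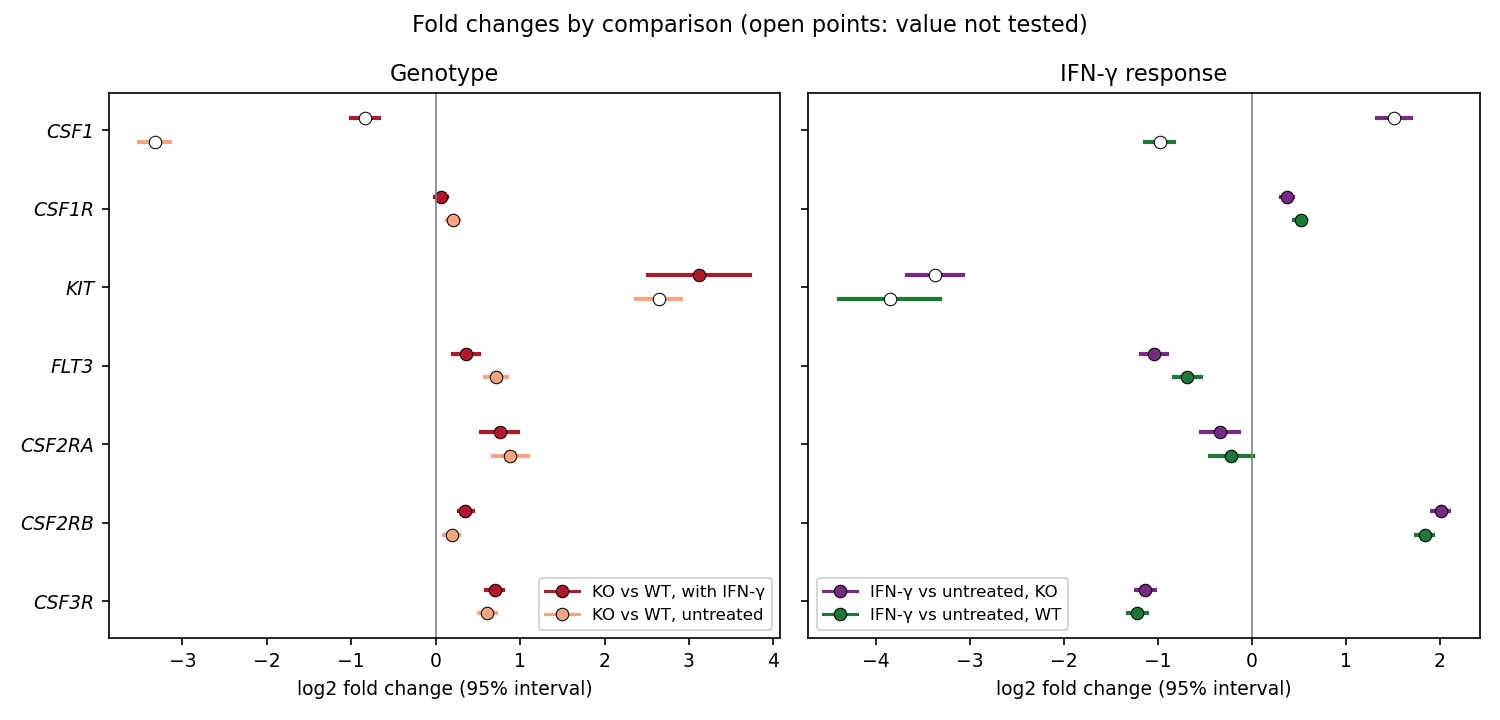
Log2 fold changes of the 7 genes with 95% intervals (x axis) for knockout against wild type (left) and IFN-γ against untreated (right); open points were not tested. Every receptor lies right of 0 in the untreated genotype comparison, and CSF1 has 1.51 in the knockout and -0.98 in wild type for IFN-γ.

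The receptors called between genotypes were all higher in the knockout. With IFN-γ, 5 of the 6 genes with a test were higher in the knockout and 0 lower, where 47.2% of the 17119 genes tested were called, 22.9% higher and 24.3% lower. KIT, at a log2 of 3.12, is 1 of these 5 and was chosen for its higher level in the untreated knockout. This count and its median therefore include a gene chosen for that direction. The other genes with a test had log2 values from 0.06 (CSF1R) to 0.76 (CSF2RA) with IFN-γ. Without IFN-γ all 5 genes with a test were higher, where 50.1% of all genes were called, 25.4% higher and 24.8% lower. All genes include many with low counts, so these shares are a low background for the receptors. With a minimum of 5 CPM in 3 libraries, which every receptor passed, 3376 of 11399 genes were higher and 3488 lower with IFN-γ. Without IFN-γ, 3756 of those 11399 genes were higher and 3445 lower. Whether the receptors were called more often than genes of similar level was not tested. The median log2 fold change of the genes with a test was 0.53 with IFN-γ and 0.61 without, against -0.01 and 0.01 over all genes. For IFN-γ in the knockout, 2 were higher and 3 lower of 5, against 61.1% of all genes called, 29.2% higher and 31.8% lower. In wild type 2 were higher and 2 lower of 5, against 56.5%, with 28.6% higher and 27.9% lower. The directions were split in both genotypes, as they were over all genes. For the difference of the responses 0 were higher and 2 lower of 5, against 15.5%, with 7.61% higher and 7.86% lower.

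Across the 12 libraries, log2 CPM of KIT, FLT3 and CSF3R ran together, with Pearson's r of 0.94 for KIT with FLT3 and 0.96 for each of the other pairs. CSF1R and CSF2RB had an r of 0.97. The libraries share 4 group means, so these values describe the group pattern. Among 11418 genes, the most like CSF1 was SNX9 (r = 0.979), followed by MAP7 (0.977) and SCD (0.974). The most like KIT was DONSON (0.992), the most like FLT3 was MERTK (0.994), and the most like CSF3R was PLXNB1 (0.996). For CSF1R it was PGGHG (0.996), for CSF2RA CHI3L1 (0.987), and for CSF2RB ISG20, ISG15 and ARSB (0.999 each).

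Of the other ligands of these receptors, only KITLG, which encodes stem cell factor, was tested of 7. KITLG averaged 2.36 ± 0.573 CPM in the knockout with IFN-γ and 1.22 ± 0.534 CPM in wild type with IFN-γ (SD, n = 3 each; log2 0.93, SE 0.25; edgeR adjusted p = 0.0025). The replicates of these groups overlapped, and the values rest on 178 and 92 counts per group. Without IFN-γ the genotype difference was not called (0.29, SE 0.18; edgeR adjusted p = 0.19). KITLG fell with IFN-γ in the knockout (-1.26, SE 0.20; adjusted p = 2.1e-06) and in wild type (-1.89, SE 0.23; adjusted p = 1.3e-08). CSF2 and IL3 had 0 counts in every library, IL34 had 0 to 2 counts per group, and CSF3 also had 0 to 2. FLT3LG had 9 to 15 counts per group.

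Among other receptor chains, IL3RA, in the pseudoautosomal region of CSF2RA and with the same limit, rose with IFN-γ. Its log2 rise was 0.94 (SE 0.08, edgeR adjusted p = 2.2e-12) in the knockout and 0.95 (SE 0.10, edgeR adjusted p = 7.5e-10) in wild type. PDGFRA, a class III receptor gene on chromosome 4 beside KIT, had values that ran opposite to those of KIT. It averaged 4.29 ± 0.321 CPM in the knockout with IFN-γ and 8.47 ± 0.758 CPM in wild type with IFN-γ (SD, n = 3 each; log2 -0.98, SE 0.16; adjusted p = 6.4e-06). Its log2 rise with IFN-γ in wild type was 4.05 (SE 0.22; adjusted p = 4.5e-17); untreated wild type averaged 0.508 ± 0.0148 CPM (SD, n = 3). PDGFRA was also lower in the untreated knockout (log2 -1.41, SE 0.39, edgeR adjusted p = 0.0031), on 17 counts there and 45 in untreated wild type. PDGFRB was lower in the untreated knockout (-1.26, SE 0.25, edgeR adjusted p = 7.9e-05).

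Of 26 proximal signalling genes, 10 were higher and 8 lower in knockout cells with IFN-γ, and 13 were higher and 7 lower without (median log2 0.04 and 0.09, against -0.01 and 0.01 over all genes). The shares over all genes were 22.9% higher and 24.3% lower with IFN-γ, and 25.4% and 24.8% without. For the IFN-γ responses they were 29.2% higher and 31.8% lower in the knockout, and 28.6% and 27.9% in wild type. These shares are also the background for the lists below, and include many genes with low counts. The adaptor gene SHC1 was higher in the knockout by 0.75 on the log2 scale with IFN-γ (SE 0.04; adjusted p = 3.4e-15) and by 0.69 without (SE 0.04; adjusted p = 2.0e-14). The Src-family kinase gene FGR was lower, with a log2 difference of -1.18 (SE 0.07; adjusted p = 7.9e-16) with IFN-γ and -1.91 (SE 0.06; adjusted p = 3.5e-22) without. PIK3R5, a regulatory subunit of PI3Kγ, was lower, with log2 differences of -0.69 with IFN-γ (adjusted p = 1.6e-12) and -1.07 without (adjusted p = 8.5e-18). JAK2, the kinase bound by CSF2RB, rose with IFN-γ by a log2 of 2.81 in the knockout (adjusted p = 5.7e-30) and 3.04 in wild type (adjusted p = 1.7e-30). For IFN-γ, 14 of the 26 were higher and 6 lower in knockout cells and 15 higher and 3 lower in wild type (median log2 0.23 and 0.18, against -0.05 and -0.02 over all genes). Without scaling these became 9 and 13, and 11 and 12. Over all 17119 genes without scaling, 2787 were higher and 9141 lower in the knockout, and 2767 and 8260 in wild type. Those counts are the background for the unscaled values of the lists below.

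Of 17 genes for brakes and turnover of receptor signalling, 7 were higher and 6 lower in knockout cells with IFN-γ, and 6 were higher and 7 lower without (median log2 0.02 and 0.01). SPRED1, an inhibitor of Ras signalling, was lower, with log2 differences of -1.43 with IFN-γ (SE 0.08; adjusted p = 6.8e-16) and -1.88 without (SE 0.08; adjusted p = 9.3e-19). SOCS2 was higher by a log2 of 0.93 with IFN-γ (SE 0.10; adjusted p = 6.9e-09), and SOCS3 by 0.80 without (SE 0.09; adjusted p = 1.3e-08). Both encode suppressors of cytokine signalling, as does SOCS1, which averaged 86.6 ± 1.36 CPM in the knockout with IFN-γ and 0.314 ± 0.216 CPM in the untreated knockout (SD, n = 3 each). SOCS1 averaged 62.9 ± 2.08 CPM in wild type with IFN-γ and 0.299 ± 0.0722 CPM in untreated wild type (SD, n = 3 each). For IFN-γ, 8 of the 17 were higher and 4 lower in knockout cells and 7 higher and 5 lower in wild type (median log2 0.04 and -0.02), which became 6 and 9, and 4 and 10, without scaling.

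Of 21 transcription factor genes tested from a list of 22, 6 were higher and 11 lower in knockout cells with IFN-γ, and 8 were higher and 9 lower without (median log2 -0.13 and -0.02). CEBPA, a regulator of granulocyte and monocyte genes, was higher by a log2 of 0.57 (SE 0.04; adjusted p = 9.7e-14) with IFN-γ and 0.67 (SE 0.04; adjusted p = 1.6e-15) without. EGR1, an immediate early gene, was lower in the untreated knockout, with a log2 difference of -2.13 (SE 0.17; adjusted p = 3.3e-12), and so was EGR2, with -1.20 (SE 0.05; adjusted p = 1.1e-18). MYB fell with IFN-γ, with log2 changes of -5.96 in the knockout (SE 0.10; adjusted p = 6.5e-31) and -4.12 in wild type (SE 0.09; adjusted p = 1.1e-27), with a difference of -1.84 (SE 0.17; adjusted p = 8.1e-10). SPI1, which encodes PU.1, averaged 354 ± 12.5 CPM in the knockout with IFN-γ and 356 ± 8.4 CPM in wild type with IFN-γ (SD, n = 3 each). For IFN-γ, 11 of the 21 were higher and 6 lower in knockout cells and 11 higher and 5 lower in wild type (median log2 0.17 and 0.29), which became 5 and 12, and 8 and 7, without scaling.

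Of 12 transcripts induced by growth factor signalling, 5 were higher and 5 lower in knockout cells with IFN-γ, and 5 were higher and 6 lower without (median log2 0.02 and 0.00). MYC was lower in the knockout, with log2 differences of -2.03 with IFN-γ (SE 0.11; adjusted p = 3.6e-16) and -1.04 without (SE 0.08; adjusted p = 3.1e-12). MCL1, an inhibitor of apoptosis, was higher by a log2 of 0.65 with IFN-γ (SE 0.04; adjusted p = 1.7e-14) and 0.62 without (SE 0.04; adjusted p = 6.0e-14). The kinase gene PIM1 rose with IFN-γ by a log2 of 2.87 in the knockout (SE 0.04; adjusted p = 4.8e-33) and 2.48 in wild type (SE 0.04; adjusted p = 2.3e-31), with a difference of 0.39 (SE 0.05; adjusted p = 2.8e-06). For IFN-γ, 6 of the 12 were higher and 6 lower in knockout cells and 6 higher and 5 lower in wild type (median log2 -0.05 and 0.06), which became 4 and 7, and 4 and 6, without scaling. For the difference of the responses, 4 were higher and 6 lower of the 26 proximal signalling genes, and 5 and 3 of the 17 brakes. Of the 21 transcription factors it was 3 and 8, and of these 12 it was 1 and 3. Over all genes, 15.5% were called for this difference, 7.61% higher and 7.86% lower.

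**Figure D4:**
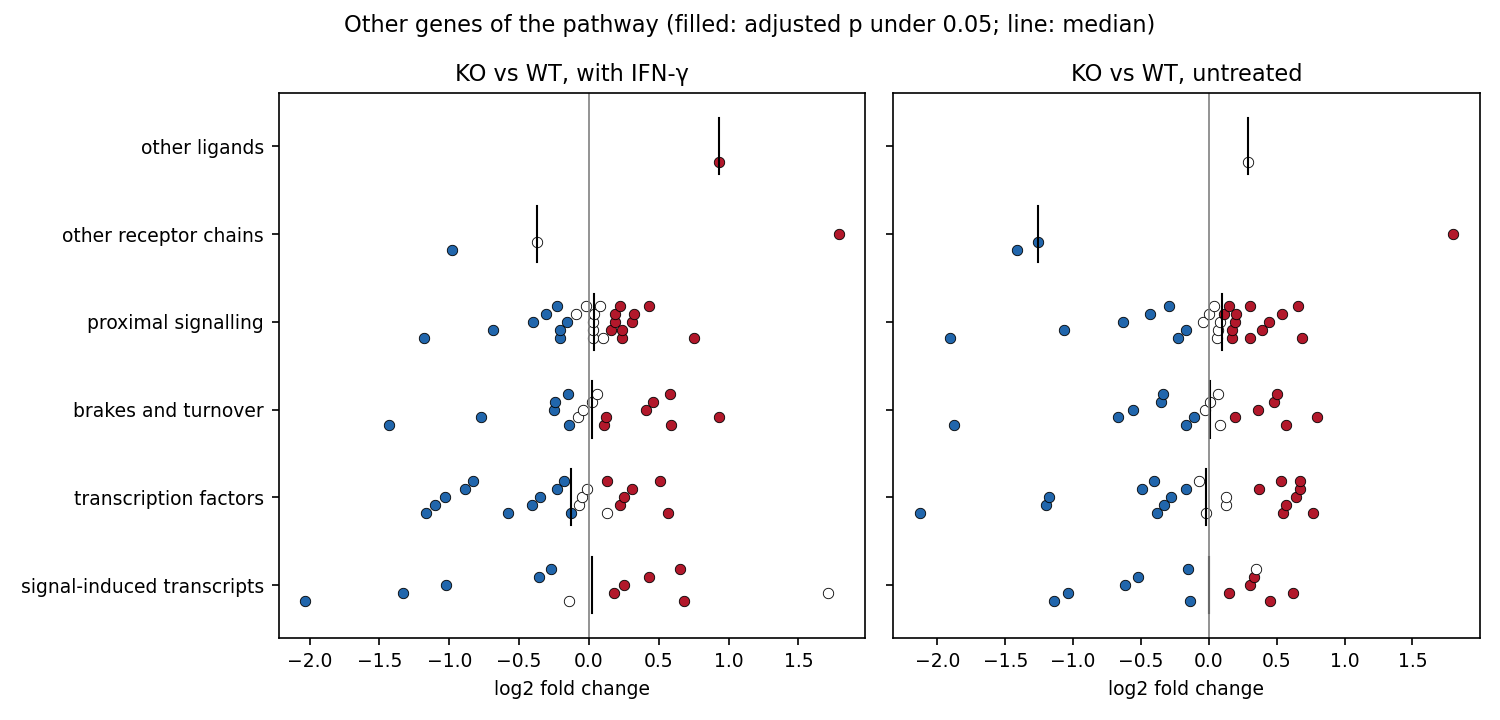
Log2 fold changes of knockout against wild type (x axis) with IFN-γ (left) and untreated (right) for the tested genes of 6 pathway lists (y axis); each point is a gene, filled red (higher) or blue (lower) where the adjusted p was under 0.05, and black lines are list medians. Medians of the 4 larger lists lie between -0.13 and 0.09, with genes on both sides of 0.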

How the data were processed

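Poly(A) RNA of 12 THP-1 libraries was sequenced, per the labels. The authors deposited read counts per gene (hg38); per the file headers they were made with featureCounts 2.0.3 from exon reads, with primary alignments only, chimeric pairs left out and no strand option. Mates were counted separately, per the file headers, and 70.4% to 73.3% of counts from 1 to 19 were even, so counts are not independent molecules and floors cover counting error only. Without strand, reads of overlapping genes cannot be told apart; CSF1R, CSF2RA and FLT3 each overlap small RNA genes or pseudogenes. fastp 0.23.2, STAR 2.7.10b, BWA and Picard 2.27.5 are also named, per the submitters' processing notes. Which aligner made the counted alignments is not given in the sources used here.

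CPM and fold changes were computed here. The filterByExpr step of edgeR 4.0.16 (R 4.3.3) left 17119 genes; libraries were scaled by TMM and compared by edgeR's quasi-likelihood test with the 12 libraries fitted together and only group means as terms. P-values were adjusted by Benjamini-Hochberg over all 17119 genes, and an adjusted p under 0.05 in the two-sided test made a call. "Higher" and "lower" in counts of genes mean called. The fit was tested on simulated data. Replicates differed by more than independent counts would (chi-square per degree of freedom 2.88 to 8.54 over 13804 genes). With mates counted separately the counts are not independent, so how far these values exceed counting noise was not tested. Replicate numbers were not used as pairs in the main fit. Same-numbered libraries had weak correlations (-0.14 to 0.15), which cannot exclude that they were handled together.

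The 7 genes and all lists were chosen with earlier results of these data known. Named genes are the 7, SDC3, up to 2 rises and 2 falls per list and comparison (called genes whose replicates did not overlap, with 5 CPM or more in the higher group), the 3 genes most correlated with each of the 7, and markers reaching 5 CPM; for length not all are printed. KITLG's, PDGFRA's and PDGFRB's other values, IL34 and further ligands, and the neighbours of CSF2RA, were named after their values were seen. Alternatives were RLE, upper-quartile or no scaling, no filter on low counts, a minimum of 5 CPM in 3 libraries, DESeq2 1.42.0, limma-voom (limma 3.58.1), only the compared libraries, a replicate block and each library left out.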

Additional observations from a re-analysis of the deposited data

Results flagged for a closer look

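IFN-γ responses of 3 of the genes were flagged as unlike between the genotypes, 2 of them by a test. For FLT3 the response in the knockout minus that in wild type was -0.36 on the log2 scale (edgeR adjusted p = 0.01), a larger fall in the knockout. For CSF1R it was -0.14 (adjusted p = 0.036), a smaller rise in the knockout, but the call was lost in 11 of 20 alternative settings. For CSF1 it was 2.49: every knockout library with IFN-γ lay above every untreated knockout library, and every wild-type library with IFN-γ lay below every untreated one. The difference for CSF1 was not tested, because CSF1 was chosen for it.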

How the results depend on the processing

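The 35 log2 fold changes of the 7 genes were recomputed in 728 alternative values, and no called value changed direction; the uncalled CSF1R difference with IFN-γ was -0.02 without scaling. Members called in the difference of responses numbered 1 to 2 when single libraries were left out and 2 to 3 in the other settings, against 2. The genes called also changed. Without wild-type IFN-γ library 1, CSF1R (edgeR adjusted p = 0.11) and FLT3 (0.058) lost their calls, and CSF2RB was called in the other direction (log2 0.20, adjusted p = 0.037). The CSF1R difference of responses lost its call with RLE size factors (adjusted p = 0.095), no filter (0.078), DESeq2 (0.072) and 8 left-out libraries (0.05 to 0.22). Without scaling the median gene moved by -0.30 for IFN-γ in the knockout and -0.25 in wild type, and with upper-quartile scaling by -0.12 and -0.11. Of the genes called, 47.9% were higher for IFN-γ in the knockout and 50.7% in wild type, against 23.4% and 25.1% without scaling and 36.4% and 37.5% with upper-quartile scaling. Between the genotypes with IFN-γ that share was 48.6%, and 35.6% without scaling; for the difference of responses it was 49.2%, and 35% without scaling. The cause was not tested.

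With a replicate block, 7983 genes were called between the genotypes with IFN-γ, 8500 without, 10375 and 9600 for IFN-γ in the knockout and wild type, and 2588 for the difference of responses. It changed no call of the 7 genes. Correlations of same-numbered libraries were -0.14 to 0.15, and 9 of 24 checks found a library closest to its own number. The top 3 genes most like each of the 7 shared 0 or 1 genes with those found over the 4 group means. KIT in wild type with IFN-γ rests on 5 to 18 counts per library, so depth limits its fold change.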
